A study of Mus musculus with 24 samples.

Results

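The change from 20 to 24 h of culture was followed in CD4+ T cells from the spleen of adult wildtype C57BL/6 mice, by comparing the 3 libraries of 24 h cultures (1 each of Th0, Th1 and Th2) with the 3 libraries of 20 h cultures, paired by culture condition. These are 6 of the 24 RNA sequencing libraries of the study and 6 of its 18 cultures. The study sampled each condition once at 4, 8, 12, 16, 20 and 24 h, beside 2 libraries of resting cells and 4 of cells kept with actinomycin. All cultures were activated with plate-bound anti-CD3 and soluble anti-CD28, which together mimic the signals of antigen and costimulation. Nothing was added in Th0, the Th1 cultures also held recombinant IL-12 with an antibody to IL-4, and the Th2 cultures held anti-IL-12, anti-IFN-γ and recombinant IL-4. The spleen cells of 6 mice were pooled before culture, so the 3 libraries of a time point are 3 conditions of 1 pool and not biological replicates. The p-values rest on the spread of libraries of this pool around a fit of time and condition over the 18 cultures.

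A resting T cell is in G0, with small stores of RNA and nucleotides. After activation it first grows, making ribosomes and metabolic enzymes, and then passes through G1 into S phase, when E2F transcription factors switch on the genes of DNA synthesis. Genes of the G2 phase and mitosis follow, and many of them are held off in resting cells by the DREAM complex, which binds a short promoter element called CHR. The last hours of the time course cover the part of this sequence in which a culture goes towards its first division, and the comparison asks which genes moved in that window.

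The 6 libraries had 21461181 to 30830243 mapped reads, as recovered from the values. The 14 markers of CD4 T cells were all detected, with a summed level of 2278 to 2753 RPKM (reads scaled by gene length and by the mapped reads of the library), and the 2 CD8 T cell markers summed to 7.44 to 11.9 RPKM. The library Th2 at 24 h stood apart: mitochondrial genes took 9.89% of its summed RPKM, against 6.27% to 7.22% in the other 5, and its summed RPKM was 641524 against 597873 to 611342. Haemoglobin genes fell from between 0.0634% and 0.0994% of the summed RPKM at 20 h to between 0.0233% and 0.0333% at 24 h.

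Changes were tested with limma on log2(RPKM + 0.5) over the 18 cultures, with time as a factor and the condition as a block, and a gene was called at a Benjamini-Hochberg adjusted p under 0.05. The pseudocount of 0.5 understates the change of low genes. Without adjustment, a p under 0.05 was reached by 609 genes that were higher at 24 h (5.67%) and by 879 that were lower (8.19%). This balance turned with the scaling, to 859 higher and 558 lower with median-of-ratios scaling, 773 and 601 with upper-quartile scaling and 701 and 575 with quantile normalization. From 20 to 24 h, 145 of the 10737 genes tested were called (1.35%), of which 112 rose (1.04%) and 33 fell (0.307%). A change of at least 2-fold was called for 55 genes (0.512%), of which 48 rose (0.447%) and 7 fell (0.0652%). In each of the 3 conditions singly, 25 genes were at least 2-fold higher at 24 h (0.233%) and 2 at least 2-fold lower (0.0186%), with no test. Of the 112 genes that rose, 54 (48.2%) were members of the DNA replication and mitosis lists, which hold 1.11% of all genes tested, and 5 more were G1 and S regulators or histones. The median change of all genes tested was -0.05 on the log2 scale, and the counts depend on the libraries in the fit. Without the Th2 cultures 92 genes were called, without the Th0 cultures 29, and without the Th1 cultures 0 (427 genes rose and 495 fell at an unadjusted p under 0.05 there, with limma).

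**Figure D1:**
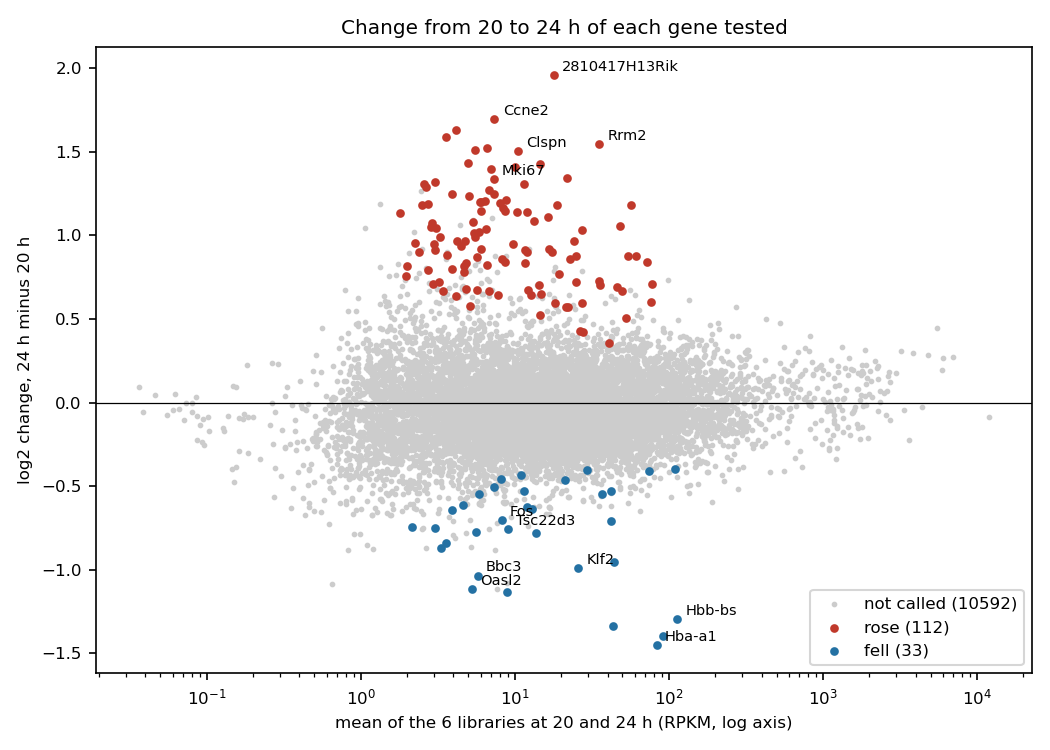
Change from 20 to 24 h of each of the 10737 genes tested (vertical axis, log2) against its mean RPKM over the 6 libraries (horizontal log axis). Red points are the 112 genes that rose and blue points the 33 that fell at an adjusted p under 0.05. The rises reach 1.96 and lie among genes of low to middle level, and the 4 haemoglobin genes are the lowest points.

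The largest rise was that of 2810417H13Rik (Pclaf in current naming), which encodes a factor that binds the replication clamp PCNA. Its level was 5.37 RPKM in Th0, 6.46 in Th1 and 9.73 in Th2 at 20 h, and 26.3, 26.2 and 33.7 RPKM at 24 h. The lowest 24 h library was thus well above the highest 20 h library, as for each of the 112 genes that rose (7.77% of all genes tested, and a feature of how they were chosen), and the log2 change was 1.96 ± 0.21 (SE, limma adjusted p = 0.000556). Ccne2 (chr4:11191351-11204779, GENCODE annotation of GRCm38), which encodes cyclin E2, a partner of CDK2 at the entry into S phase, went from 2.12, 2.72 and 4.69 RPKM in Th0, Th1 and Th2 to 8.56, 8.60 and 17.6 RPKM. Its log2 change was 1.70 ± 0.21 (adjusted p = 0.00164, limma). Rrm2 (chr12:24708241-24714146), the regulatory subunit of ribonucleotide reductase, which makes deoxynucleotides, was at 15.3, 15.8 and 22.7 RPKM and then at 45.5, 57.0 and 55.7 RPKM. All 3 conditions of Rrm2 rose, by 1.54, 1.82 and 1.28 on the log2 scale in Th0, Th1 and Th2.

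Genes of DNA replication moved together. Of the 52 members tested, 18 rose and 0 fell (the background is 1.04% and 0.307%). At 24 h 50 had a higher value (40.0% of all genes tested), 46 of them in all 3 conditions (15.6% of all genes tested). The median change of the list was 0.58, against -0.05 for all genes tested. Clspn, the checkpoint adaptor claspin, was at 4.01, 4.22 and 7.92 RPKM at 20 h and at 15.4, 15.8 and 15.3 RPKM at 24 h in Th0, Th1 and Th2. The 3 conditions were closer to each other at 24 h than at 20 h, and the smallest change was that of Th2 (0.90 against 1.82 and 1.79). Cdc6, which loads the MCM helicase on origins, rose by 1.31 ± 0.23 (adjusted p = 0.00819, limma), and Mcm10, which helps to start the helicase, rose by 1.18 ± 0.19 (adjusted p = 0.00636).

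For the subunits of the helicase itself no change was called. Mcm2 was at 95.1, 101 and 130 RPKM at 20 h and at 111, 122 and 120 RPKM at 24 h, and its change was 0.13 ± 0.13 (limma adjusted p = 0.69). Named after their values were seen, Mcm3, Mcm4, Mcm5, Mcm6 and Mcm7 changed by 0.34, 0.42, 0.35, 0.32 and 0.44, and none of them passed the test (limma adjusted p from 0.0916 to 0.345). Their levels had climbed earlier: the mean of Mcm2 was 33.9 RPKM at 8 h, 49.0 at 12 h, 73.2 at 16 h and 109 at 20 h, and that of Mcm5 was 26.6, 39.9, 68.2 and 115 RPKM at these times. Tk1 and Tyms, which supply thymidine nucleotides and were also chosen after their values were seen, rose by 1.11 and 0.97 (limma adjusted p = 0.0064 and 0.00326).

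**Figure D2:**
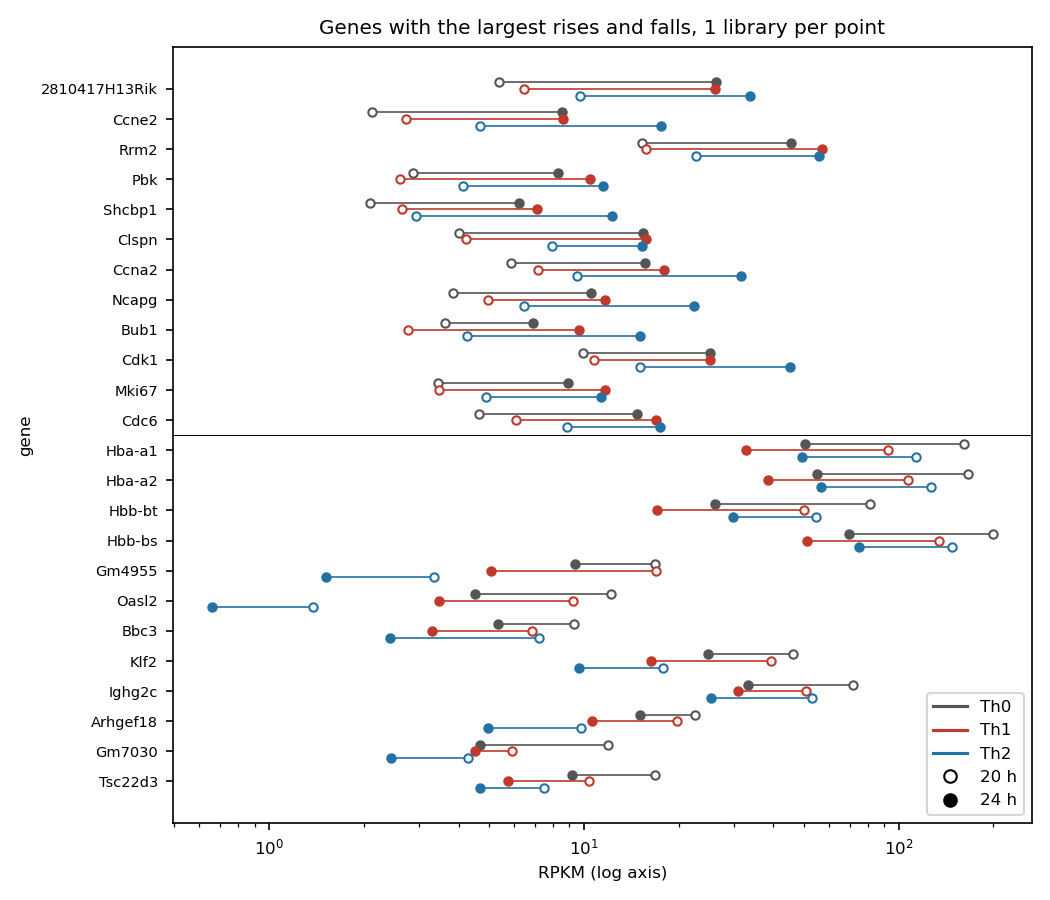
RPKM (horizontal log axis) of the 12 genes with the largest rises and the 12 with the largest falls, 1 library per point, with open circles for 20 h, filled circles for 24 h and a line joining the libraries of 1 condition. In the upper 12 genes each filled circle is right of each open circle of that gene, and the falls of Klf2, Oasl2 and Gm4955 sit on levels that are lower in Th2.

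Mitosis genes gave the largest group of rises. Of 67 members tested 36 rose and 0 fell (1.04% and 0.307% of all genes tested). Their median change was 0.82 against -0.05 for all genes tested, and 62 were higher in all 3 conditions (15.6% of all genes tested). Ccna2, which encodes cyclin A2, the partner of CDK2 and CDK1 in S and G2 phase, was at 5.87, 7.14 and 9.52 RPKM at 20 h and at 15.6, 17.96 and 31.4 RPKM at 24 h in Th0, Th1 and Th2. Cdk1, the kinase that drives entry into mitosis, was at 9.92, 10.8 and 15.0 RPKM and then at 25.2, 25.1 and 45.1 RPKM. Both genes were highest in Th2 at both times, and they rose by 1.43 ± 0.22 (adjusted p = 0.00463) and 1.34 ± 0.23 (adjusted p = 0.00668, limma). Ccnb1, the gene of cyclin B1, the CDK1 partner of mitosis, rose from 4.17, 5.58 and 5.17 RPKM to 8.61, 11.7 and 17.5 RPKM.

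Parts of the mitotic machine rose at low levels. Ncapg, a condensin subunit, rose by 1.41, Bub1, a kinase of the spindle checkpoint, by 1.40, Pbk, a mitotic kinase, by 1.52, Nuf2, a kinetochore subunit, by 1.43, and Kif2c, a kinesin that takes microtubules apart, by 1.59. Kif2c was at 0.68 to 2.62 RPKM at 20 h and at 4.51 to 7.41 RPKM at 24 h. Shcbp1, whose values gave whole reads, had 96 reads in Th0, 163 in Th1 and 193 in Th2 at 20 h, and 355, 418 and 669 at 24 h. The 24 h over 20 h ratio per mapped read was 2.96 in Th0 (95% interval 2.13 to 4.15), 2.69 in Th1 (2.08 to 3.54) and 4.18 in Th2 (3.33 to 5.32), and these intervals cover counting error only. Mki67 (chr7:135689784-135716361), the gene of the Ki-67 antigen of cycling cells, had 747, 1012 and 1516 reads at 20 h and 2414, 3251 and 2914 at 24 h. Its ratio was 2.59 in Th0 (2.30 to 2.92), 3.37 in Th1 (3.04 to 3.73) and 2.32 in Th2 (2.12 to 2.53), so Th1 and Th2 differed by more than counting error. Topoisomerase gene Top2a and kinase gene Aurkb, chosen after their values were seen, rose by 1.18 and 1.14.

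Among 27 regulators of G1 and S phase, 3 rose and 0 fell (1.04% and 0.307% of all genes tested), with a median of 0.16. Beside Ccne2 these were Ccne1, the gene of cyclin E1, which rose by 0.92 ± 0.20 (adjusted p = 0.0309, limma), and E2f8, an E2F family repressor, which went from 0.96, 1.48 and 1.60 RPKM to 3.59, 3.71 and 3.61 RPKM. The activator genes E2f1 and E2f2 and the inhibitor genes Cdkn1a and Cdkn1b, named after their values were seen, changed by 0.62, 0.63, -0.45 and -0.36 and did not pass the test (limma adjusted p = 0.0682, 0.087, 0.329 and 0.352). Of the 54 replication-dependent histone genes, whose messengers peak in S phase, 9 passed the filter on low values. Of these 9, 2 rose (1.04% of all genes tested). Hist1h2bj had 29, 45 and 61 reads at 20 h and 101, 117 and 102 at 24 h, and Hist1h4i had 41, 75 and 66 and then 125, 128 and 130. Their changes were 1.20 and 1.04, and transcripts of histone copies that share sequence cannot be fully separated.

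**Figure D3:**
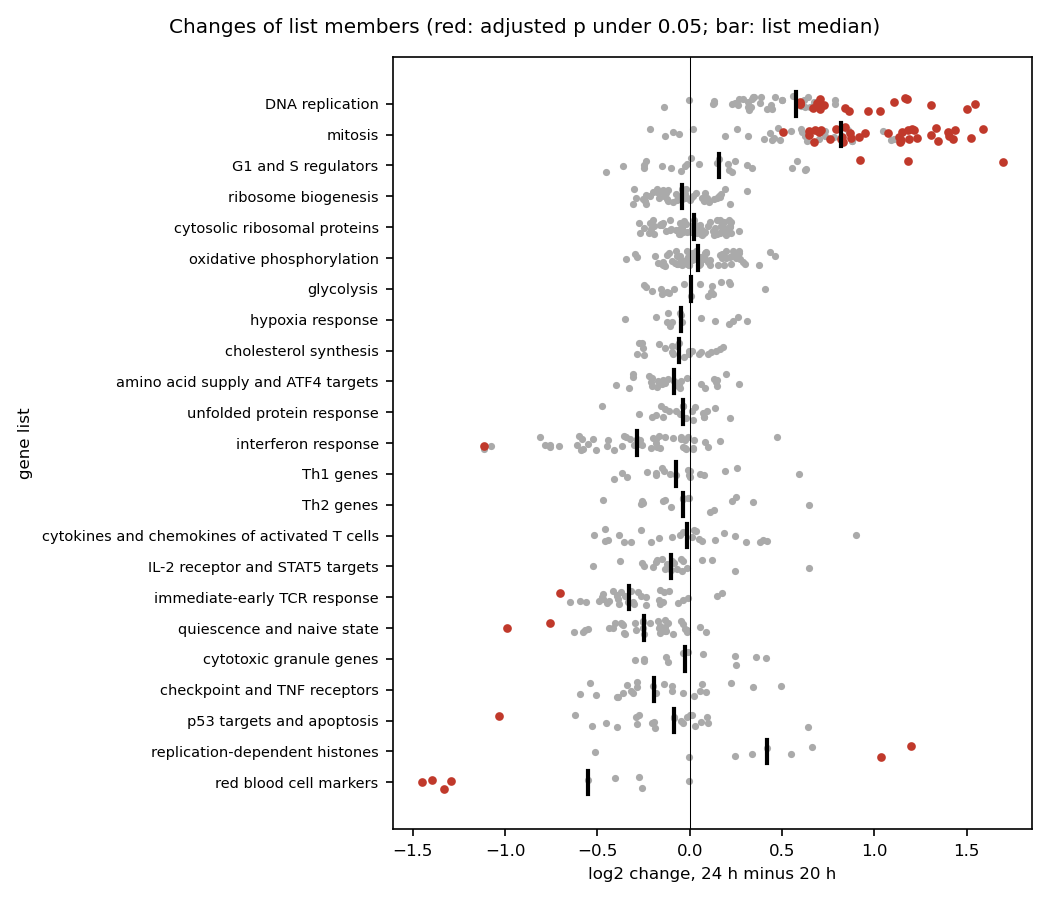
Change from 20 to 24 h (horizontal axis, log2) of each tested member of 22 gene lists and of the red blood cell markers, with 1 point per gene, red points for an adjusted p under 0.05 and a black bar at the list median. Red points lie right of 0 for DNA replication, mitosis, G1 and S regulators and histones, and left of 0 for 1 or 2 members of the interferon, immediate-early, quiescence and p53 lists and for the 4 haemoglobin genes.

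Promoters of the mitosis and DNA replication lists were searched for sequence elements known from the cell cycle, over all tested members and then over those that rose. The windows compared held 300 bases (250 before and 50 after the transcription start) of the RefSeq promoters of GRCm38.p6, each searched on both strands. The letters TTTGAA, the core of the CHR element, were found in 39 of the 57 mitosis genes with a promoter (68.4%), against 12.3% of 8500 tested genes with one and 18.1% of all 27025 promoters. CCAAT, the box bound by NF-Y, was in 75.4% of the mitosis promoters and in 39.8% of those of tested genes, and both elements together were in 33 of 57 (57.9%) against 5.34%. Either of the E2F-type elements TTTGGCGC and TTTCCCGC was in 12 of 43 DNA replication promoters (27.9%), against 3.35% of tested genes and 1.63% of all promoters. In the mitosis list they were in 3 of 57 (5.26%). Among the members that rose, TTTGAA with CCAAT was in 18 of 30 mitosis promoters (60.0%), and an E2F-type element in 2 of 16 DNA replication promoters (12.5%), a lower share than in the whole list. Over the genes called in this step, TTTGAA with CCAAT was in 26 of 93 that rose (28.0%) and in 2 of 29 that fell (6.90%), and an E2F-type element was in 11 of 93 (11.8%) and in 0 of 29. No test was made on these shares, and a match of letters is not a site in use.

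The elements are shown for the 2 DNA replication genes that rose and hold an E2F-type element, and for the 2 mitosis genes with the largest rise that hold both TTTGAA and CCAAT in the bases shown. Each sequence is the 250 bases before the RefSeq transcription start, 5′ to 3′ on the strand of the gene, with each match to any of the 4 elements in capitals. On the opposite strand CCAAT reads ATTGG, TTTCCCGC reads GCGGGAAA and TTTGGCGC reads GCGCCAAA. Cdc6 (plus strand, chr11:98907901-98908150) and Pola1 (minus strand, chrX:93632156-93632405) each hold an E2F-type element that begins at base -138 from the start. Pola1, the catalytic subunit gene of DNA polymerase alpha, rose by 0.70, was chosen after its value was seen, and also holds a CCAAT box at -37. In the GENCODE annotation Cdc6 starts at chr11:98907801, so the window shown for Cdc6 lies after that start. Ncapg (plus strand, chr5:45669675-45669924) holds TTTGAA at -30 and a CCAAT box at -176, and Cdk1 (minus strand, chr10:69352913-69353162) holds TTTGAA at -71 and -15 and CCAAT boxes at -208, -80 and -48.
Cdc6: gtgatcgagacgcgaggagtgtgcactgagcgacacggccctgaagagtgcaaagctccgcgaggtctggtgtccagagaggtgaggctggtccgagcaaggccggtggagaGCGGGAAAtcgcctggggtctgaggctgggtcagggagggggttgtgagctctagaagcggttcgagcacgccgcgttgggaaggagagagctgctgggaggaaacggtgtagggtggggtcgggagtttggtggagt
Pola1: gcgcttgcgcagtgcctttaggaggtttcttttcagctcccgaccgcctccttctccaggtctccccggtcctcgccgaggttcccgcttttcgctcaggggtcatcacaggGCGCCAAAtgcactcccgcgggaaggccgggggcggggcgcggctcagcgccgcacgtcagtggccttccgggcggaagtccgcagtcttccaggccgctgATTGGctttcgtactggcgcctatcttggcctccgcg
Ncapg: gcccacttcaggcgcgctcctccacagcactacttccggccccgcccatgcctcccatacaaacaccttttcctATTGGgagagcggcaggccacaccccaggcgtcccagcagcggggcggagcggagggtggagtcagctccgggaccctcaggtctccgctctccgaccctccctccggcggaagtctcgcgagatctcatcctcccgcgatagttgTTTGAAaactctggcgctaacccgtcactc
Cdk1: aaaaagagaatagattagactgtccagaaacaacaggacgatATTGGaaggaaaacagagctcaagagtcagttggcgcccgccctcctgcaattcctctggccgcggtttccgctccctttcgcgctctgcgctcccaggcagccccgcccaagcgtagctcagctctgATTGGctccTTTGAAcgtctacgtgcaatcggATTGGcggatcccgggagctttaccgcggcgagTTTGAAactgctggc

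In the lists of growth and metabolism no gene was called, where 1.35% of all genes tested were. In the lists for ribosome biogenesis (50 tested), cytosolic ribosomal proteins (76), oxidative phosphorylation (76), glycolysis (19), hypoxia (15), cholesterol synthesis (23), amino acid supply and ATF4 targets (31) and the unfolded protein response (23), 0 of 313 distinct genes were called by limma (9 were higher and 7 lower at an unadjusted p under 0.05), and the list medians were between -0.09 and 0.05. Among the members of these lists, Npm1, a nucleolar protein of ribosome assembly, was at 2683, 2918 and 3000 RPKM and then at 3222, 3078 and 4509 RPKM in Th0, Th1 and Th2, and Gapdh, the glycolytic enzyme, at 2306, 2262 and 2508 and then at 2276, 2417 and 2403 RPKM. Npm1 changed by 0.31 ± 0.14 (limma adjusted p = 0.352) and Gapdh by 0.01 ± 0.14 (adjusted p = 0.991). The Npm1 value of Th2 at 24 h lies above the others, in the library that stood apart. Myc, the growth regulator, was at 293 to 311 RPKM at 20 h and at 273, 294 and 206 RPKM at 24 h, a change of -0.24 ± 0.32 (limma adjusted p = 0.762).

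Among the genes by which Th1 and Th2 cells are told apart none was called, where 1.35% of all genes tested were. With this share, 0 calls in lists of this size does not show that the genes were unchanged. Of the 19 Th1 genes, 17 Th2 genes, 26 cytokine and chemokine genes, 22 genes of the IL-2 receptor and its STAT5 targets, 12 cytotoxic granule genes and 24 checkpoint and TNF receptor genes tested, 0 were called by limma (of 109 distinct genes 6 were higher and 12 lower at an unadjusted p under 0.05), and the medians were between -0.19 and -0.01. Tbx21, the gene of the Th1 factor T-bet, was at 36.1, 44.3 and 4.30 RPKM at 20 h in Th0, Th1 and Th2 and at 41.0, 47.0 and 3.50 RPKM at 24 h. Gata3, the gene of the Th2 factor, was at 14.7, 8.59 and 34.4 RPKM and then at 11.2, 7.21 and 31.1 RPKM. For these 2 genes the order of the conditions was the same at both times. It was not for Il4, the Th2 cytokine gene, which was at 7.53, 19.7 and 8.03 RPKM at 20 h, highest in Th1, and at 13.6, 12.7 and 11.4 RPKM at 24 h. Il2, the growth factor gene of T cells, was at 90.3, 93.5 and 131 RPKM and then at 104, 122 and 200 RPKM, a change of 0.40 ± 0.34 (limma adjusted p = 0.612), and Il2ra, its high-affinity receptor chain, changed by 0.12 ± 0.25 (adjusted p = 0.848). The Ifitm genes of the interferon family were not called either: Ifitm1 changed by -0.30 ± 0.21, Ifitm2 by 0.47 ± 0.25 and Ifitm3 by 0.02 ± 0.37 (limma adjusted p = 0.54, 0.407 and 0.988).

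The falls included genes of the resting state, single genes of the interferon and early activation programs, and haemoglobins. Klf2 (chr8:72319033-72321656), a factor that keeps naive T cells quiescent, had 1832, 2107 and 1014 reads at 20 h and 1232, 834 and 457 at 24 h. Its ratio per mapped read was 0.538 in Th0 (95% interval 0.485 to 0.596), 0.415 in Th1 (0.370 to 0.465) and 0.543 in Th2 (0.462 to 0.635), and its log2 change was -0.99 ± 0.17 (adjusted p = 0.0064, limma). In each condition the fall was larger than counting error, while the levels of the 2 times overlapped across conditions, since Th2 had 17.8 RPKM at 20 h and Th0 24.9 at 24 h. Tsc22d3, the glucocorticoid-induced gene GILZ, fell by 0.76 ± 0.17 on the log2 scale (adjusted p = 0.0328, limma). In the quiescence list 2 of 38 members fell (0.307% over all genes tested), these being Klf2 and Tsc22d3. A lower value was found for 36 (60.0% of all genes tested), and the median was -0.25.

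Oasl2 (chr5:114896936-114912234), an interferon-induced gene of the oligoadenylate synthetase family, was at 12.2, 9.24 and 1.38 RPKM at 20 h in Th0, Th1 and Th2 and at 4.50, 3.46 and 0.66 RPKM at 24 h. It was lower in Th2, which received anti-IFN-γ, at both times, and its change was -1.11 ± 0.22 (adjusted p = 0.016, limma). It was the only 1 of 53 genes of the interferon list called, where 0.307% of all genes tested fell. A lower value was found for 46 of the list (60.0% of all genes tested). Of these, 33 were lower in all 3 conditions (27.4% of all genes tested), and the list median was -0.29. Irf7 and Ifit3, chosen after their values were seen, changed by -1.08 ± 0.33 and -1.11 ± 0.36 and did not pass (limma adjusted p = 0.151 and 0.186). Gm4955 (Ifi206 in current naming), which is not a member of that list, changed by -1.13 ± 0.25 (adjusted p = 0.033, limma). Of 36 immediate-early genes, those that T cell receptor signals switch on fast, Fos was the 1 called (0.307% of all genes tested fell). It was at 12.8, 6.99 and 11.5 RPKM at 20 h and at 5.95, 5.63 and 6.50 at 24 h (-0.70 ± 0.16, limma adjusted p = 0.0463). Of the 36 genes, 29 were lower in all 3 conditions (27.4% of all genes tested). Nr4a1, another gene of this list, was at 329, 248 and 217 RPKM and then at 211, 208 and 151 RPKM (-0.47 ± 0.34, limma adjusted p = 0.545). Bbc3, which encodes the pro-apoptotic protein PUMA, was the 1 of 23 p53 and apoptosis genes called, and fell from 9.30, 6.83 and 7.23 to 5.34, 3.30 and 2.42 RPKM.

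The 4 haemoglobin genes had the largest falls. Hba-a1, an alpha chain gene, was at 161, 92.5 and 113 RPKM at 20 h and at 50.6, 32.7 and 49.2 RPKM at 24 h in Th0, Th1 and Th2 (-1.45 ± 0.20, adjusted p = 0.00308, limma). Hba-a2, Hbb-bt and Hbb-bs changed by -1.40, -1.33 and -1.29, and near-identical copies of these genes may have exchanged reads. They are markers of red blood cells, and 4 of the 9 such markers tested fell (0.307% of all genes tested). The summed level of the 9 markers was at least 387 RPKM in each 20 h library and at most 212 RPKM in each 24 h library, after 38940 and 42500 RPKM in the resting libraries. The gene Ighg2c, an immunoglobulin constant region and so a product of B lineage cells, fell from 71.4, 50.7 and 52.9 to 33.1, 30.8 and 25.4 RPKM. Over the B cell, macrophage, dendritic cell, natural killer, granulocyte, CD8 and regulatory T cell markers 0 of 53 distinct genes were called (1.35% over all genes tested). At an unadjusted p under 0.05 in limma 1 was higher and 5 lower, and the medians were from -0.43 (granulocytes) to -0.04. In bulk RNA fewer cells of a type and less RNA per cell cannot be told apart.

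The 145 genes had distinct courses before 20 h. The sample names give the resting cells a number that differs from the one shared by all cultures, so an effect of preparation and one of activation cannot be told apart in values at rest. Of the 112 that rose, 110 had a lower mean at 4 h than at rest (98.2%, against 53.4% of all genes tested), 85 fell from 8 to 12 h (75.9% against 48.8%) and 82 had their lowest mean of the 6 times at 12 or 16 h (73.2% against 14.5%), where the choice of genes that rose makes a lowest mean at 24 h unlikely. The libraries of 12 and 16 h entered the choice of the 112 through the spread of the fit, and not through the change itself. Between 12 and 16 h 93 of the 112 were higher at 16 h (83.0%, against 60.1% of all genes tested), with a median of 0.25 against 0.04. The climb thus began before 20 h for most of them. Mki67 was at 94.0 and 91.8 RPKM in the resting libraries, and its mean was 34.8 RPKM at 4 h, 4.28 at 12 h, 2.85 at 16 h and 10.6 at 24 h, so it was still far below rest at the end. Of the 112 genes 61 had a higher mean at 24 h than at rest, and the share over all genes tested was not counted. The red blood cell markers were high in the resting libraries too, and the part of other cells in the early levels of cycle genes was not tested.

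For the 33 genes that fell, the earlier course was mixed. From rest to 4 h 20 were lower and 13 higher (60.6% lower, against 53.4% of all genes tested). From 4 to 8 h 33 of 33 were lower (53.8% of all genes tested), from 8 to 12 h 29 were lower (87.9% against 48.8%) and from 12 to 16 h 19 were lower and 14 higher (57.6% lower, against 39.9%). At 24 h, 33 of 33 had their lowest mean of the 6 times (29.6% of all genes tested), which follows in part from how they were chosen. At that time 32 were below rest, a count for which the share over all genes tested was not taken. Tsc22d3 was at 154 and 161 RPKM at rest, and its mean was 64.7 RPKM at 4 h, 19.6 at 16 h and 6.53 at 24 h.

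**Figure D4:**
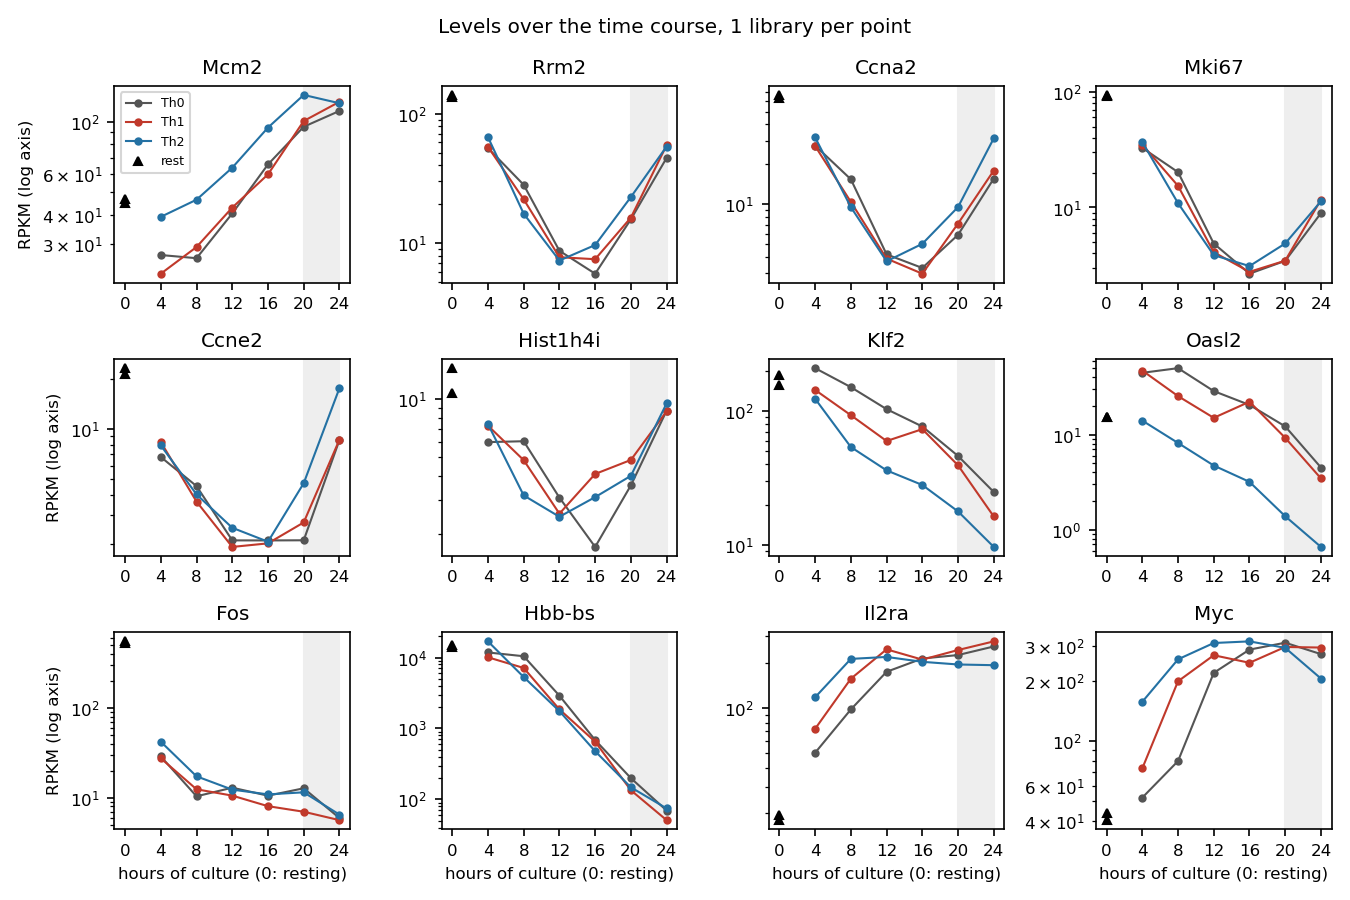
RPKM (log axis) of 12 genes over hours of culture in Th0, Th1 and Th2, 1 library per point, with triangles for the 2 resting libraries at 0 and the step from 20 to 24 h shaded. Rrm2, Ccna2, Mki67 and Ccne2 go through a low point at 12 to 16 h and climb after it, and Mcm2 climbs from 8 to 20 h. Klf2 and Hbb-bs decline. The mean of Oasl2 is higher at 4 h (35.2 RPKM) than at rest (15.3 and 15.4 RPKM) and declines after 4 h.

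**Figure D5:**
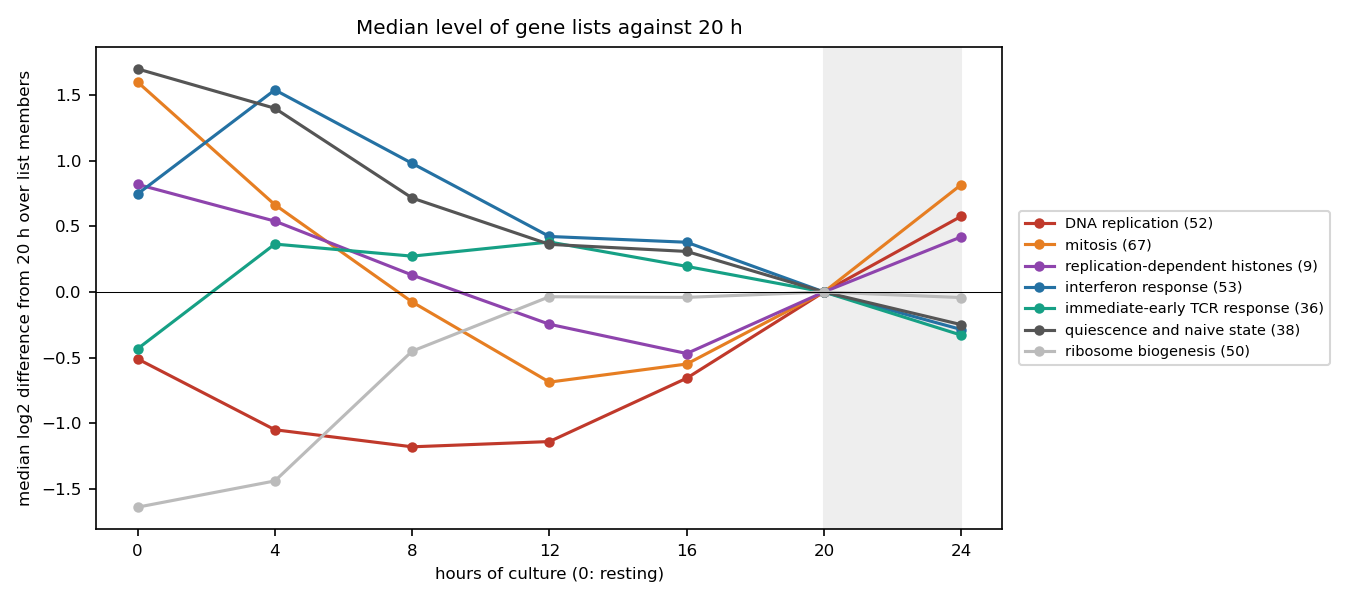
Median over list members (number tested in brackets) of the log2 difference from the 20 h mean, against hours of culture with resting cells at 0. From 20 to 24 h the mitosis list goes up by 0.82 and the DNA replication list by 0.58, and the interferon, immediate-early and quiescence lists go down by 0.29, 0.33 and 0.25.

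The order of the conditions among the genes that rose was not used to choose them. At 20 h 97 of the 112 genes had their highest level in Th2 (86.6%, against 37.7% of all genes tested), and at 24 h 93 (83.0% against 31.7%). At 16 h it was 82 (73.2% against 40.7%), and at 12 h 55 (49.1% against 42.7%). The libraries of 12 and 16 h entered the choice of these genes through the spread of the fit. Th0 was lowest for 80 of the 112 at 20 h (71.4%, against 33.1% of all genes tested) and for 92 at 24 h (82.1% against 23.8%). From 20 to 24 h their median rise (log2) was 0.93 for Th0, 0.98 for Th1 and 0.97 for Th2 over genes chosen for that change. Each of these values rests on 1 library per condition, and a difference between conditions and one between libraries cannot be told apart.

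The change from 20 to 24 h was set against that of an earlier step of 4 h, from 12 to 16 h, and their signed difference was tested. This difference was called for 6 of 10737 genes (0.0559%), all with the higher signed value in the late step. A fall that turned into a rise can pass this test without the late step being the larger. Birc5, which encodes survivin, a subunit of the chromosomal passenger complex of mitosis, was at a mean of 4.62 RPKM at 12 h, 2.35 at 16 h, 5.18 at 20 h and 12.0 at 24 h, and the difference was 2.00 ± 0.26 (adjusted p = 0.0101, limma). Mki67, Ccne2 and Rrm2 had differences of 1.84, 1.75 and 1.62 (limma adjusted p = 0.0111, 0.0432 and 0.0468), and their change from 12 to 16 h was a fall or close to 0. Cd24a, a surface antigen gene of young B and red cell precursors, had a difference of 1.54 ± 0.22 (adjusted p = 0.0111, limma), with a mean of 22.3 RPKM at 12 h, 10.8 at 16 h, 9.02 at 20 h and 13.3 at 24 h. Cd24a was not called in the late step itself (0.54 ± 0.16, limma adjusted p = 0.134).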

How the data were processed

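RNA sequencing of 24 libraries was made from pooled CD4+ cells, purified by negative magnetic selection. The labels call the cells purified CD4, whereas the methods name naive cells. The values are RPKM, made by the authors and deposited as 1 table with a row per gene symbol. The submitters' processing notes name BWA and GRCm38, and the counter and annotation are not given in the sources used here. Of 22009 named entries, 10737 with a mean of at least 1 RPKM over the 18 cultures were tested.

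Mapped reads were recovered from the steps of the values: 5625 of 15726 genes (35.8%) had all values within 0.01 of whole reads. Counts of 1 to 20 reads were even 1.46 times as often as odd, so intervals used pairs of reads (reads divided by 2), as conditional binomial 95% intervals that cover counting error only. No count test was run, since most genes gave no whole reads.

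The test was that of limma 3.58.1 (R 4.3.3) fitted to log2(RPKM + 0.5) of the 18 cultures, with time as a factor, the culture condition as a block, an intensity trend and Benjamini-Hochberg adjustment. The fit had 10 residual degrees of freedom. The script was tested on simulated data with known changes. Of 50 genes changed by 0.5 on the log2 scale it called 16, and of 50 changed by 1 it called 47. It also called 47 of 50 changed by 1.5, 50 of 50 changed by 2 and 16 of 10537 unchanged genes. All other steps were run in Python 3.11.15 (scipy 1.17.1, pandas 2.3.3, numpy 2.4.6).

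The genes and the 22 lists and 9 marker lists were chosen with earlier results of these data known. Named are the 12 largest rises and falls with a mean of at least 5 RPKM, up to 4 called members of each list (otherwise the 2 most abundant), 20 fixed genes, the called genes of the comparison of steps (1 of the 6 is not reported here), and 5 genes with the widest range over conditions. Alternatives were a pseudocount of 0.1 or 1, the filter left out or set to a mean of 5 RPKM, 3 scalings, no trend, other sets of libraries, no condition block and leaving out each condition or earlier time point. The actinomycin libraries were not used.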

Additional observations from a re-analysis of the deposited data

Results flagged for a closer look

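Among the named genes whose values gave whole reads, 5 had 24 h over 20 h ratios per mapped read that were above 1 in 1 condition and below 1 in another, each beyond its counting interval. The difference between conditions was not tested, since each condition was sequenced once at each time, and counting error leaves out the spread between libraries.

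Ifng, the gene of the Th1 cytokine IFN-γ, had a ratio of 1.26 in Th0 (1.16 to 1.37), 0.908 in Th1 (0.878 to 0.939) and 0.883 in Th2 (0.814 to 0.958). Its level stayed highest in Th1, at 428 RPKM at 20 h and 388 at 24 h, against 75.1 and 94.5 in Th0. Mcm2 had ratios of 1.17 in Th0 and 1.21 in Th1 and of 0.922 in Th2 (0.889 to 0.956). Trat1, a T cell receptor adaptor gene, had 2.04 in Th2 (1.85 to 2.25) and 0.715 in Th1 (0.577 to 0.883). Rps27, a ribosomal protein gene, had 1.46 in Th2 (1.37 to 1.56) and 0.523 in Th0 (0.486 to 0.562), and 1810022K09Rik had 1.58 in Th2 (1.37 to 1.84) and 0.602 in Th0 (0.505 to 0.719).

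Trat1, Rps27 and 1810022K09Rik were named for their wide range over conditions. In Th2, genes of the shortest class (longest transcript under 1 kb) changed by a median of 0.06 on the log2 scale. Those of the longest class (over 3 kb) changed by -0.13. The medians of these classes were -0.04 and -0.04 in Th0, and -0.07 and 0.005 in Th1. The part of transcript length in the ratios above was not tested.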

How the results depend on the processing

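With 145 genes called as reported, the number was 87 with no filter, 85 with the filter at a mean of 5 RPKM, 300 with only the 6 libraries and the condition as a block, and 351 with only 12 to 24 h. The condition block pairs cultures of 1 condition, and without it 63 genes were called over the 18 cultures, 82 with the 2 resting libraries added and 0 with only the 6 libraries (492 rose and 711 fell at an unadjusted p under 0.05 there, with limma). Leaving out a condition or an earlier time point gave 0 to 219 genes, with 0 without Th1, 29 without Th0, 92 without Th2, 89 without 12 h and 219 without 8 h. All 29 genes without Th0 and 75 of the 92 without Th2 were among the 145. In none of the 20 alternatives did a mitosis gene fall, and without Th1 and with only the 6 libraries without block 0 of them were called. The sign of a change could differ only with another pseudocount, another scaling or a condition left out. The other alternatives give the same mean paired difference and alter only its standard error or the genes tested.

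The 55 genes with at least a 2-fold change became 30 under the filter at 5 RPKM and 0 with the 6 libraries without block, and 0 to 60 when a condition or time point was left out (0 without Th1 and 26 without Th0). The difference from the step of 12 to 16 h, called for 6 genes, was called for 0 genes with no filter (1756 at an unadjusted p under 0.05, with limma), 10 with the filter at 5 RPKM, 53 with only 12 to 24 h and 3 without the block, and for 0 to 25 genes when a condition or time point was left out (0 without Th0 or Th1, with 903 and 759 at an unadjusted p under 0.05 in limma, 11 without Th2 and 25 without 8 h).

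Of 2308 values of 116 genes under the alternatives, 2091 kept their direction where called and their side of the threshold. Another 184 were no longer past it, 33 newly passed it and 0 reversed. A reversal was possible only with another pseudocount, another scaling or a condition left out. The adjusted p of Fos was 0.00838 to 0.378 over the alternatives and that of Klf2 0.000894 to 0.638. The cause of these shifts was not tested. The precision is lowest for genes with few reads, such as Hist1h2bj with 29 in Th0 at 20 h.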
